A study of Mus musculus with 4 samples.

Results

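The 10 genes described here encode enzymes of fatty acid synthesis, elongation and desaturation and 1 regulator of that pathway. They were chosen by symbol, with earlier results of these data known: Acss2, Acaca, Fasn, Thrsp, Scd1, Scd2, Elovl5, Elovl6, Fads1 and Fads2, which are 10 of the 23997 genes of the expression table. The RNA came from lung endothelial cells, which line the blood vessels of the lung, of C57BL/6 mice. The cells were grown in EBM-2 medium with serum and carried for 48 h either a control siRNA or one that targets Nr3c1. This gene encodes the glucocorticoid receptor (GR), a transcription factor that steroid hormones activate, and siRNA lowers its mRNA without removing the gene. Cells of both arms were studied untreated and after 18 h with 100 nM dexamethasone (DEX), a synthetic glucocorticoid, which makes 4 conditions. A design in triplicate is stated, and the table holds 1 column of FPKM (fragments scaled to transcript length and to the mapped total) for each condition. The labels do not say whether a column is a single culture or a mean. No value below therefore has an SD, an n or a test, and differences between columns lack a replicate check.

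Fatty acids are built in the cytosol from acetyl-CoA. Acetyl-CoA carboxylase turns acetyl-CoA into malonyl-CoA, fatty acid synthase joins these units into palmitate, elongases lengthen the chain and desaturases put double bonds into it. Genes of the pathway are classical targets of the sterol regulatory element binding proteins (SREBPs), membrane-bound transcription factors released when the cell lacks sterols, and in liver and fat they also respond to glucocorticoids, insulin and thyroid hormone. Endothelial cells use the products for membranes and for the acylation of proteins such as nitric oxide synthase.

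The siRNA labels were checked against the targeted mRNA. Nr3c1 stood at 14.4 and 14.3 FPKM in the control siRNA columns without and with DEX, and at 5.45 and 5.32 FPKM in the GR siRNA columns. The endothelial markers Pecam1 (274.7 to 281.6 FPKM) and Cdh5 (384.1 to 436.3 FPKM) were abundant in all 4 columns. All 12 endothelial markers reached 1 FPKM, with sums of 2973 and 2977 FPKM in the control arm and 2728 and 2654 FPKM in the GR arm. Of the 12, 3 had both GR siRNA columns above both control columns, 6 had both below and 3 overlapped. Among all 11445 genes of at least 1 FPKM in a column, 32.3% had both above and 36.6% had both below. Cldn5 was lower (492.6 and 524.95 FPKM against 367.7 and 332 FPKM), by more than 1.5-fold with DEX in both arms. Robo4 was higher (22.47 and 22.55 FPKM against 30.31 and 27.95 FPKM). The number of reads is unknown. Read from the steps between the lowest FPKM values, depth relative to the untreated GR siRNA column (1) was 0.671 and 0.962 for control siRNA without and with DEX, and 0.811 for GR siRNA with DEX. Low values are thus least precise in the untreated control siRNA column.

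Promoters are shown for 4 genes that the results turn on: Thrsp, which was lower with GR siRNA, and Fasn, Acss2 and Fads2, which were higher. Each runs from 250 bases before to 50 bases after the RefSeq start, on the gene's own strand, in build GRCm38.p6 (the mm10 assembly). RefSeq entries were matched for 7 of the 10 genes: these 4, Elovl5, Elovl6 and Acaca. Capitals mark matches, on either strand, to a CCAAT box (CCAAT), a GC box (GGGCGG), an E-box (CACGTG), the core of a sterol regulatory element (TCACNCCAC) or a glucocorticoid response half-site (AGAACA).
Thrsp, chr7:97417501-97417800, minus strand: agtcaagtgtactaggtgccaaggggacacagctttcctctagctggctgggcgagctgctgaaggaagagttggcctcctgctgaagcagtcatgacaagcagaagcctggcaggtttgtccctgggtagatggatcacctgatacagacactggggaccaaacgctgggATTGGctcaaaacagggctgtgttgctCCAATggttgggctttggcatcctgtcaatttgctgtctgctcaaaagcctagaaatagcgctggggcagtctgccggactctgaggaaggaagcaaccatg
Fasn, chr11:120824498-120824797, minus strand: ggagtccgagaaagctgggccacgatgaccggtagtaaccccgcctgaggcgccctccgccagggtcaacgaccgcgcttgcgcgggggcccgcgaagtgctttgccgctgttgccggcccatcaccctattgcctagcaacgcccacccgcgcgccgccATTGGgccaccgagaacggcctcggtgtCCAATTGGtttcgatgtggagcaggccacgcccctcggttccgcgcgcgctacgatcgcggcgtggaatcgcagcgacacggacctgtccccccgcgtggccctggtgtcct
Acss2, chr2:155517793-155518092, plus strand: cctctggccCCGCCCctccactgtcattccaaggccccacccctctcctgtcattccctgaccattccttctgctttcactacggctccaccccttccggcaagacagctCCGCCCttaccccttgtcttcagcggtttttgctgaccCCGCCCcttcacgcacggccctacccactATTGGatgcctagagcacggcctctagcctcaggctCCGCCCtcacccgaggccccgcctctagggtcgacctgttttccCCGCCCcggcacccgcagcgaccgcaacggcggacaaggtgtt
Fads2, chr19:10101454-10101753, minus strand: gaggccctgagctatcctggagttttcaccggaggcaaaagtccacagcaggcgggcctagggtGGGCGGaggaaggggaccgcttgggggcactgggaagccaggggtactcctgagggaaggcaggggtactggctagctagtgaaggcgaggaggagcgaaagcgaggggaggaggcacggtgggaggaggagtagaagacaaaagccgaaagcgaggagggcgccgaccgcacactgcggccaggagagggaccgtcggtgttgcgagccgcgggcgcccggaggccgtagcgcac

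A CCAAT box, the motif of the factor NF-Y that works beside SREBPs, stood in 4 of the 7 promoters (Thrsp, Fasn, Acss2 and Elovl5). It stood in 37.4% of all 32851 RefSeq promoters of the same length and in 37.9% of those of genes of at least 1 FPKM. Thrsp and Fasn, which went in opposite directions with GR siRNA, had the same arrangement: an inverted box (ATTGG) at −79 and a forward box at −52 in Thrsp, and at −90 and −62 in Fasn, counted from the start. This spacing of 25 to 30 bases, looked for after the 2 promoters had been seen, occurred in 0.441% of all promoters. In Fasn the forward box at −62 overlaps a further inverted box at −59. GC boxes were found in 2 of 7 promoters, 5 of them in Acss2 and 1 in Fads2, against 35.7% of all promoters and 64.1% of those of genes of at least 1 FPKM. The E-box occurred only in Elovl5, 1 of 7 against 7.15% of all promoters and 10.2% of those of genes of at least 1 FPKM. The half-site occurred only in Acaca, 1 of 7 against 18.97% of all promoters and 12.02% of those of genes of at least 1 FPKM. The Acaca window, chr11:84195188-84195487, belongs to a start inside the GENCODE locus given below, not to the first base of that locus. The sterol regulatory element core matched 0 of 7 promoters and 1.24% of all. Full glucocorticoid response elements (AGAACA and then TGTTC after a gap of 3 bases, or GAACA and then TGTTCT after the same gap) matched 0 of 7 and 0.0487% of all. A match is only a match of letters in this window.

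Levels of the 10 genes spanned more than 2 orders of magnitude in FPKM, a scale per transcript length that allows genes to be compared. Scd2, the stearoyl-CoA desaturase of most tissues outside the liver, was the most abundant member in every column, at 138 and 121 FPKM with control siRNA (without and with DEX) and 203 and 199.9 FPKM with GR siRNA. Acss2, the cytosolic acetyl-CoA synthetase that makes acetyl-CoA from acetate, was last in every column, at 0.58 and 0.46 FPKM and 1.196 and 1.34 FPKM. All 10 members reached 1 FPKM in at least 1 column, Acss2 only through the GR siRNA columns. Scd2 alone held 44.7% of the summed FPKM of the 10 genes with control siRNA and 48.3% with GR siRNA. The order of the other members was much the same in all columns except for Thrsp, which ranked 5 of 10 in both control siRNA columns and 9 of 10 in both GR siRNA columns. Elovl5 and Fads1 lay close together near the top, and in the GR siRNA column without DEX Fads1 passed Elovl5 (64.5 against 62.7 FPKM).

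**Figure D1:**
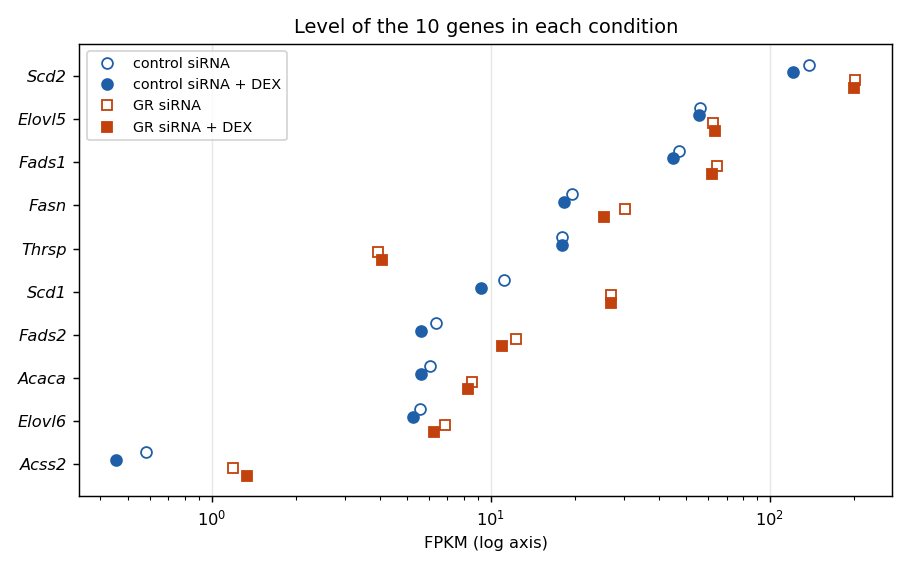
FPKM on a log axis of the 10 genes, ordered by their level with control siRNA, with 1 point per condition. Circles mark the control arm and squares the GR arm; symbols are open for untreated cells and filled for DEX. Squares lie to the right of circles for 9 genes and to the left for Thrsp, which stands at 18.1 and 18.0 FPKM against 3.96 and 4.08 FPKM.

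The first comparison, between the siRNA arms, asks what the cells express when GR mRNA is reduced. With GR siRNA, 9 of the 10 genes were higher and 1, Thrsp, was lower, and for every member both GR siRNA columns lay outside the range of both control siRNA columns. Across all 11445 genes of at least 1 FPKM in a column, 32.3% had both GR siRNA columns above both control columns and 36.6% had both below. The median difference of the 10 genes on the log2(FPKM + 1) scale was 0.46 without DEX and 0.47 with DEX, beside −0.01 and −0.0085 over all genes tested. The same 9 and 1 were found under each of 3 other scalings of the columns. These genes were chosen with their values in view, so the counts describe them and are no evidence that the pathway stands apart.

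At 1.5-fold on that scale, 3 members were higher without DEX (Scd1, Fads2 and Fasn) and 1 was lower (Thrsp), where 2.36% and 2.54% of 11325 genes were. With DEX in both arms 4 were higher (Scd1, Fads2, Scd2 and Acss2) and again Thrsp alone was lower, where 2.36% and 2.62% of 11344 genes were. The difference exceeded the 95th percentile of all genes (0.40 in both states) for 7 members without DEX and for 7 with DEX. Elovl5 and Elovl6 were the 2 members inside the central range in both. Acss2 entered these counts only because its GR siRNA columns reached 1 FPKM. With DEX it was 0.46 FPKM in control siRNA cells and 1.34 FPKM in GR siRNA cells. Its place among the higher members was thus set in part by the filter.

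Thrsp encodes Spot 14, a small nuclear and cytosolic protein that is induced with lipogenesis in liver and fat. It lies on chromosome 7 at 97412938 to 97417730, minus strand (ENSMUSG00000035686.8), with 2 exons in its longest coding transcript. Its values were 18.1 and 18.0 FPKM with control siRNA, without and with DEX, and 3.96 and 4.08 FPKM with GR siRNA. Control columns were thus 4.57-fold and 4.43-fold higher than the GR siRNA columns, and the 2 columns of each siRNA arm differed by at most 3.08%. On the log2(FPKM + 1) scale the differences were −1.94 and −1.91, and 31 of 11325 and 53 of 11344 genes had a lower value. Its paralog Mid1ip1, which encodes a partner of Spot 14 that promotes polymerisation of acetyl-CoA carboxylase, went the other way, at 26.9 and 26.0 FPKM against 42.6 and 41.5 FPKM. A fraction of 0.227 of the 31-mers of Mid1ip1 occurs in another gene, and it shares none with Thrsp.

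The genes of the first steps were moderately higher with GR siRNA. Acaca, which encodes acetyl-CoA carboxylase 1, the enzyme that commits carbon to fatty acid synthesis (chromosome 11, 84129672 to 84401651, plus strand), was 6.06 and 5.65 FPKM with control siRNA and 8.61 and 8.31 FPKM with GR siRNA, ratios of 1.42 and 1.47. A processed pseudogene on chromosome 12, Gm5182, holds 31.7% of the 31-mers of Acaca, so reads could be divided between them. Fasn, which encodes fatty acid synthase (chromosome 11, 120805846 to 120824547, minus strand), was 19.6 and 18.3 FPKM against 30.3 and 25.5 FPKM, ratios of 1.55 without DEX and 1.39 with DEX. It had the largest gap between the 2 GR siRNA columns in log2 terms of any member. In the GR siRNA columns Fasn was 7.66 and 6.26 times as abundant as Thrsp, against 1.08 and 1.02 times in the control columns.

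Acss2 (chromosome 2, 155517948 to 155585724, plus strand) had GR siRNA to control ratios of 2.05 without DEX and 2.93 with DEX, which on the log2(FPKM + 1) scale came to only 0.47 and 0.68 because its level was near 1 FPKM. Its locus overlaps Gss, Ggt7 and the antisense RNA gene Acss2os on the opposite strand, with 2.99%, 1.62% and 2.70% of the 31-mers of Acss2 also in them. The strand setting of the counting is not given. Reads in these short overlaps could count for either gene. Gss, the glutathione synthetase gene, was 12.4 and 12.8 FPKM with control siRNA and 13.5 and 13.9 FPKM with GR siRNA. Ggt7 was below 1 FPKM in every column, between 0.0973 and 0.247 FPKM, and so was Acss2os, between 0.0427 and 0.122 FPKM.

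Both stearoyl-CoA desaturases, which make monounsaturated oleate and palmitoleate, were higher with GR siRNA, Scd1 by more than Scd2. Scd1 (chromosome 19, 44394455 to 44407879, minus strand) was 11.1 and 9.20 FPKM in the control columns and 26.9 FPKM in each GR siRNA column. Its log2 differences of 1.204 and 1.45 were the highest of the 10 genes, with 66 of 11325 and 32 of 11344 genes above them. Scd2 (chromosome 19, 44293674 to 44306864, plus strand) had ratios of 1.47 and 1.65, for the levels given above. The ratio of Scd2 to Scd1 was 12.4 and 13.2 with control siRNA and 7.53 and 7.43 with GR siRNA. Scd1 has 5.18% of its 31-mers in Scd2 and 5.84% in Scd3. The other genes of the cluster were at or below 0.112 FPKM (Scd3) and 0.105 FPKM (Scd4) in all columns.

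The front-end desaturases act on polyunsaturated fatty acids. Fads2, the delta-6 desaturase that opens the pathway from linoleic and alpha-linolenic acid (chromosome 19, 10062765 to 10101746, minus strand), was 6.39 and 5.61 FPKM against 12.3 and 10.9 FPKM with GR siRNA. The ratios of 1.93 and 1.95 were nearly the same without and with DEX, and the log2 differences were 0.85 in both. Fads1, the delta-5 desaturase that forms arachidonic acid (chromosome 19, 10182888 to 10196877, plus strand), was 47.2 and 45.1 FPKM against 64.5 and 62.1 FPKM, ratios of 1.37 and 1.38. The ratio of Fads1 to Fads2 was 7.40 and 8.04 with control siRNA and 5.23 and 5.68 with GR siRNA. Fads3, next to Fads2, was 25.9 and 22.7 FPKM against 31.4 and 29.04 FPKM.

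The elongases were the members that differed least. Elovl5, which lengthens polyunsaturated chains (chromosome 9, 77917364 to 77984519, plus strand), was 56.4 and 55.6 FPKM with control siRNA and 62.7 and 63.8 FPKM with GR siRNA, or 11.2% and 14.7% higher. Elovl6, which turns palmitate into stearate (chromosome 3, 129532355 to 129638495, plus strand), was 5.57 and 5.28 FPKM against 6.87 and 6.26 FPKM, or 23.5% and 18.6% higher. The 2 GR siRNA columns lay above both control columns for both genes, by differences smaller than those of 1831 other genes for Elovl5 and 1685 for Elovl6 with DEX.

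**Figure D2:**
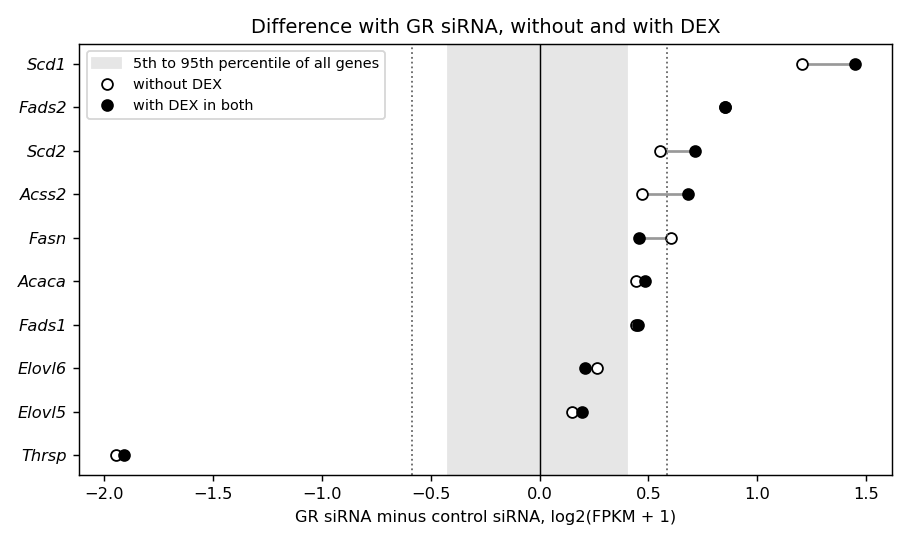
Difference between GR siRNA and control siRNA in log2(FPKM + 1) for the 10 genes, without DEX (open) and with DEX in both arms (filled); dotted lines mark 1.5-fold and the grey band the range from the 5th to the 95th percentile common to both comparisons over all genes tested. Thrsp lies at −1.94 and −1.91, Scd1 at 1.204 and 1.45, and Elovl5 and Elovl6 lie inside the band.

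Genes next to the members were read from GENCODE release M21 within 150 kb, for genes of at least 1 FPKM in a column. Around Thrsp, 7 such genes were found, of which 5 had both GR siRNA columns below both control columns and 1 had both above. The nearest, Ndufc2, which encodes a subunit of mitochondrial complex I, is 5.14 kb from Thrsp on the opposite strand, with the 3′ ends of the genes facing each other. It was 238 and 252 FPKM with control siRNA and 122 and 134 FPKM with GR siRNA, ratios of 0.513 and 0.531, and shares no 31-mer with another gene. The remaining 6 differed between −0.35 and 0.11 without DEX and between −0.12 and 0.26 with DEX on the log2 scale. Around Fasn, 1 of 10 neighbours was higher and 6 were lower with GR siRNA, and around Elovl5 0 of 3 and 2. The split was the other way near Acaca (3 of 4 higher, 0 lower), Acss2 (4 of 5 and 0), Fads1 (5 of 6 and 1) and Fads2 (5 of 7 and 2), where the counts for the Fads genes include each other. Over all genes 32.3% were higher and 36.6% lower by this measure. The Fads1 and Fads2 sets also share most of their other genes, so their 2 counts are not separate. Rab3il1, counted as higher in both sets, reached 1 FPKM only in the GR siRNA columns (0.94 and 0.82 FPKM against 1.02 and 1.24 FPKM). Fen1, a DNA repair nuclease gene 2.26 kb from Fads1, was lower with GR siRNA (54.4 and 55.03 FPKM against 49.7 and 45.96 FPKM), and a fraction of 0.796 of its 31-mers also occurs in other genes, so its values are uncertain.

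**Figure D3:**
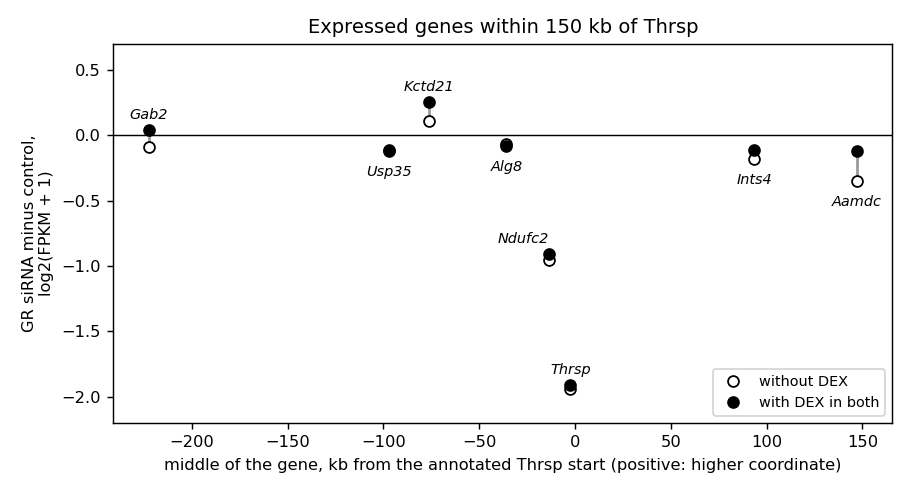
Difference between GR siRNA and control siRNA in log2(FPKM + 1), without DEX (open) and with DEX in both arms (filled), of Thrsp and of the 7 genes of at least 1 FPKM within 150 kb, against the distance of the middle of each gene from the Thrsp start in kb. Ndufc2 lies at −0.96 and −0.91 and Thrsp at −1.94 and −1.91, while the other 6 lie between −0.35 and 0.26.

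The comparison of DEX with no DEX asks what the added hormone did in each siRNA arm. No member differed by 1.5-fold in either arm. In control siRNA cells 0 of 9 members of at least 1 FPKM were called in either direction, where 0.686% of 11227 genes were higher and 0.392% lower, and in GR siRNA cells 0 of 10, where 0.531% and 0.645% of 11310 genes were. Among genes of at least 300 nt with little shared sequence these shares were far smaller, with 3 higher and 2 lower of 8166 genes in control siRNA cells and 4 and 2 of 8232 in GR siRNA cells. The DEX column was lower in both arms for 7 members (Fasn, Acaca, Scd1, Scd2, Elovl6, Fads1 and Fads2) and higher in both for 0, beside 27.6% and 23.1% of 11445 genes. With the columns scaled to equal totals, Thrsp and Elovl5 were also lower with DEX in GR siRNA cells, which made 9 of 10 there, where 69.3% of all genes were lower on that scale. In control siRNA cells alone, 9 of 9 members of at least 1 FPKM were lower with DEX, and 8 of 9 under the upper quartile and median of ratios scalings, since Thrsp differed by only −0.0015. Over all genes 52.6% were lower there on the deposited scale.

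On the log2(FPKM + 1) scale and among members of at least 1 FPKM, the largest DEX differences in control siRNA cells were those of the stearoyl-CoA desaturases and Fads2. As a ratio that of Acss2 was larger (0.58 to 0.46 FPKM, a ratio of 0.78), below that level in both columns. Scd1 was 11.1 FPKM without DEX and 9.20 FPKM with DEX (log2 difference −0.25), Scd2 was 138 and 121 FPKM (−0.19), and Fads2 was 6.39 and 5.61 FPKM (−0.16). These 3 of the 9 lay below the 5th percentile of all genes, −0.14. In GR siRNA cells Scd1 (26.9 FPKM in both) and Scd2 (203 and 199.9 FPKM) had log2 differences of −0.0013 and −0.02, and Fads2 again had −0.16 (12.3 and 10.9 FPKM). Fasn was the only member below the 5th percentile there (−0.17 over all genes), at 30.3 FPKM without DEX and 25.5 FPKM with DEX (−0.24). The interaction, which is the GR siRNA difference with DEX minus that without, was highest for Scd1 at 0.25 and lowest for Fasn at −0.15, and over all genes its range from the 5th to the 95th percentile was −0.22 to 0.24.

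**Figure D4:**
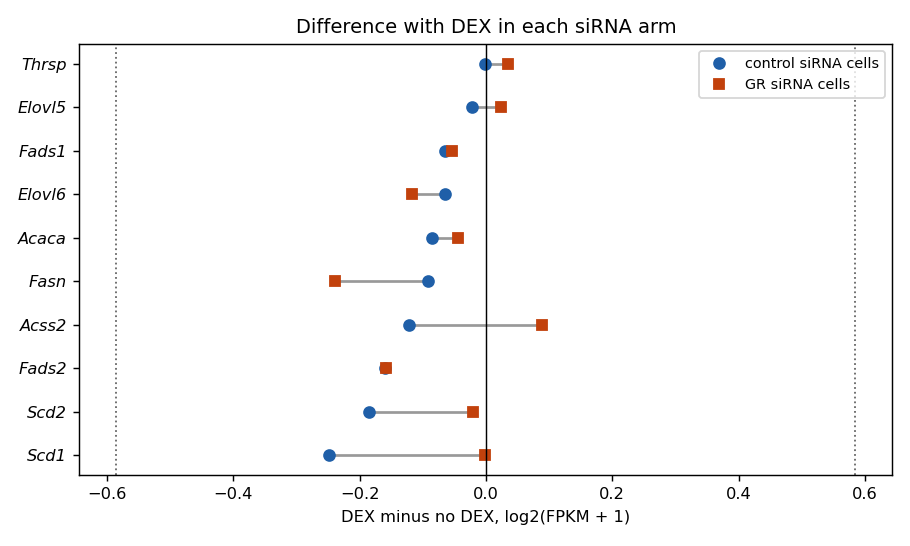
Difference between DEX and no DEX in log2(FPKM + 1) for the 10 genes, in control siRNA cells (circles) and in GR siRNA cells (squares); dotted lines mark 1.5-fold. All points lie between −0.25 and 0.09, with Scd1 at −0.25 in control siRNA cells and Fasn at −0.24 in GR siRNA cells.

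The regulators of the pathway were measured with 24 symbols, of which 22 reached 1 FPKM. With GR siRNA 9 had both columns above both control columns, 7 had both below and 6 overlapped. Over all genes of at least 1 FPKM in a column, 32.3% were above and 36.6% below. The median difference of the regulators was −0.03 without DEX and 0.02 with DEX. With equal totals the split was 10 above and 4 below. Srebf1, which encodes the SREBP of fatty acid genes, was 15.8 and 15.1 FPKM against 20.05 and 18.3 FPKM. Srebf2, the SREBP of cholesterol genes, was 50.5 and 49.6 FPKM against 66.5 and 61.7 FPKM, and their escort Scap was 11.8 and 12.03 FPKM against 14.98 and 13.6 FPKM. Insig2, which holds that complex in the endoplasmic reticulum, was lower, at 7.87 and 7.34 FPKM against 4.63 and 4.59 FPKM. Its relative Insig1, itself an SREBP target, was 34.4 and 34.2 FPKM against 38.3 and 39.05 FPKM. The liver X receptor genes Nr1h2 (28.1 to 30.1 FPKM) and Nr1h3 (2.05 to 2.21 FPKM) varied little, and Mlxipl, which encodes the carbohydrate sensor ChREBP, was at most 0.00507 FPKM. Trib1, a pseudokinase that targets C/EBP factors for degradation, was 37.8 and 37.6 FPKM against 30.2 and 27.8 FPKM.

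Genes that supply acetyl-CoA and NADPH were spread on both sides. Of 15 that reached 1 FPKM, 6 were above in both GR siRNA columns and 5 below, beside 32.3% and 36.6% of all genes. The medians of the 15 were 0.08 and 0.10. With upper quartile or equal-total scaling 8 were above and 3 below. Acly, which cleaves citrate to acetyl-CoA, was 65.8 and 63.3 FPKM against 76.5 and 71.4 FPKM. The mitochondrial citrate carrier Slc25a1 was 31.3 and 29.1 FPKM against 38.3 FPKM in both GR siRNA columns. Idh1, a cytosolic source of NADPH, was 18.3 and 18.5 FPKM against 26.2 and 26.5 FPKM, while Pgd of the pentose phosphate pathway was 89.9 and 91.04 FPKM against 79.5 and 76.7 FPKM. Acacb, the second acetyl-CoA carboxylase, which restrains fatty acid oxidation at the mitochondrion, was 1.503 and 1.65 FPKM against 2.41 and 2.48 FPKM.

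Of the other elongation genes, 7 of 9 were above in both GR siRNA columns and 1 below, beside 32.3% and 36.6% of all genes. With equal totals the split was 8 and 0. The medians of the list were 0.13 and 0.24. Among the 7 were the 3-hydroxyacyl-CoA dehydratase Hacd1 (listed as Ptpla, 28.2 and 30.9 FPKM against 35.7 and 37.4 FPKM) and Hsd17b12, the ketoacyl reductase of the elongation cycle (56.2 and 54.7 FPKM against 64.2 and 67.6 FPKM). Elovl4, another of the 7, reached 1 FPKM only in the GR siRNA columns (0.57 and 0.63 FPKM against 1.59 and 1.32 FPKM). The filter thus admitted it through the arm where it was high. For the other desaturation genes 3 of 8 were above and 3 below (4 and 2 with equal totals), with medians of −0.0085 and 0.03. For mitochondrial fatty acid synthesis, a separate pathway that makes the precursor of lipoic acid, 4 of 10 were above and 2 below, with medians of 0.04 and 0.03. Its reductase Mecr was 11.2 and 10.5 FPKM against 14.6 and 14.8 FPKM.

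Downstream of the pathway, 17 of 25 genes of acyl-CoA use and glycerolipid synthesis were above in both GR siRNA columns and 3 below. Beside them stand 32.3% above and 36.6% below over all genes. The medians of the 25 were 0.14 and 0.08. Lpcat3, which places polyunsaturated chains into phospholipids, was 32.7 and 33.02 FPKM against 48.5 and 47.9 FPKM, and Acsl3, an acyl-CoA synthetase of lipid droplets, 4.25 and 4.16 FPKM against 6.01 and 6.35 FPKM. Lpin3, a phosphatidate phosphatase, went the other way (46.2 and 43.3 FPKM against 31.2 and 29.5 FPKM). Of 27 genes of fatty acid oxidation 15 were above and 6 below, with medians of 0.05 and 0.08. The carrier Ucp2 had the largest difference in that list, 56.2 and 69.9 FPKM against 19.3 and 18.4 FPKM, and Hadh, a dehydrogenase of short-chain intermediates, was 39.0 and 39.8 FPKM against 27.9 and 24.9 FPKM. In cholesterol synthesis and uptake 21 of 22 were above and 0 below, also under the 3 other scalings, with medians of 0.41 and 0.49. The medians of the 10 fatty acid genes, 0.46 and 0.47, were close to those of this list and above those of the other 7. The difference was not tested. Members and lists were chosen with earlier results of these data known, so this order only describes them.

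**Figure D5:**
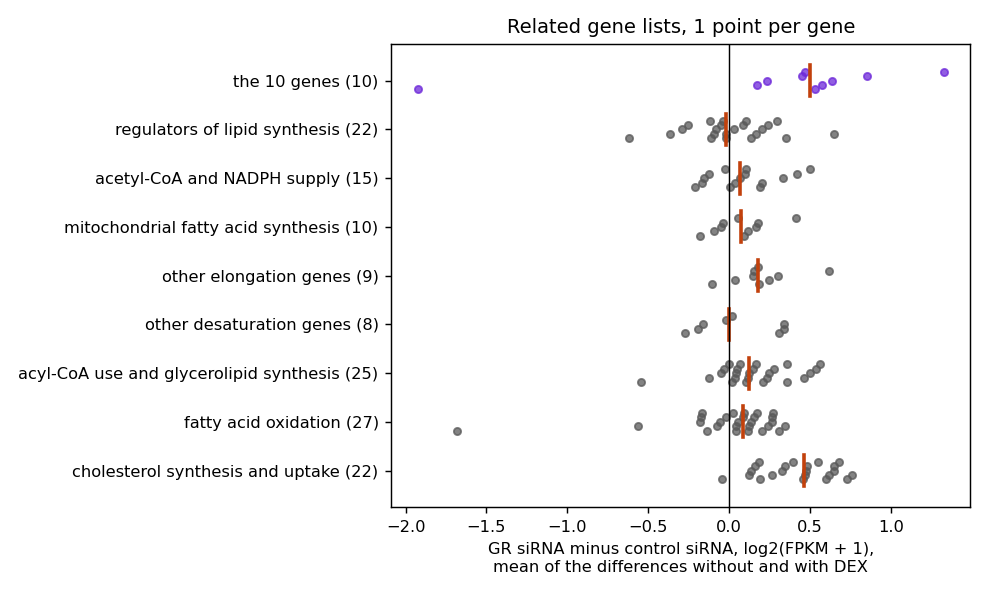
Difference between GR siRNA and control siRNA in log2(FPKM + 1), as the mean of the comparisons without and with DEX, for the 10 genes and for 8 lists of related genes of at least 1 FPKM in a column; each point is a gene, the number of genes is in brackets and the red line is the median. Thrsp is the lowest point of the 10 genes and Ucp2 the lowest of fatty acid oxidation, and the cholesterol list lies almost wholly to the right of 0.

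Markers of other cells that make or store lipid were mostly low. Of 12 adipocyte markers 10 stayed below 1 FPKM, with Lep, Cfd and Retn at 0 in all columns and Adipoq at no more than 0.0628 FPKM. Their summed level, 24.5 to 27.98 FPKM, was mostly the lipase gene Pnpla2 (21.6 to 25.3 FPKM), which many cells express. The surfactant gene Sftpc of type 2 lung epithelial cells was at most 0.0869 FPKM. The list of 16 epithelial markers summed to 43.4 and 42.5 FPKM with control siRNA and 46.6 and 45.0 FPKM with GR siRNA. Abca3 gave 26.4 to 28.5 FPKM of these sums. Of the 16, 11 stayed below 1 FPKM. Of the other 5, Hopx (7.55 and 6.98 FPKM against 9.42 and 10.8 FPKM) and Sftpb were above in both GR siRNA columns, beside 32.3% of all genes. Sftpb reached 1 FPKM only in those columns. Ager was below, beside 36.6% of all genes, and Abca3 and Krt18 overlapped. The summed level of the 13 fibroblast and mural cell markers was higher with GR siRNA, at 17.0 and 15.4 FPKM against 22.5 and 20.1 FPKM. Of the 4 that reached 1 FPKM, 2 had both GR siRNA columns above both control columns: Acta2 (5.65 and 5.60 FPKM against 8.82 and 7.71 FPKM) and Dcn (0.39 and 0.30 FPKM against 1.99 and 2.73 FPKM). Dcn reached 1 FPKM only in the GR siRNA columns. The shares over all genes of at least 1 FPKM in a column were 32.3% above and 36.6% below. The columns of Tagln (8.76 and 7.48 FPKM against 7.87 and 7.04 FPKM) and Col3a1 (1.59 and 1.47 FPKM against 2.26 and 1.54 FPKM) overlapped. The other 9 stayed below 1 FPKM, some of them close to 0. Among these 9, Col1a1, Col1a2, Lum, Pdgfra, Pdgfrb, Myh11 and Cspg4 also had both GR siRNA columns above both control columns. Des overlapped and Rgs5 was at 0. Leukocyte markers, 12 of them in all, had Ptprc at 0 in all columns, while the lysosomal gene Cd68 was 161 to 218 FPKM. The sum of the 12 was 178 and 163 FPKM in the control arm and 196 and 221 FPKM in the GR arm. Almost all of it was Cd68 (176 and 161 FPKM against 194 and 218 FPKM), and 10 of 12 stayed below 1 FPKM. The part of fibroblast and mural RNA in the differences of the 10 genes was not tested. In bulk samples such as these, fewer cells of a type and less RNA per cell cannot be told apart.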

How the data were processed

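RNA from 4 conditions of mouse lung endothelial cells was compared, with 1 column per condition. The authors deposited FPKM per gene. Per the submitters' processing notes these were made with TopHat2, a spliced aligner, and Cuffdiff on mm10; their versions, the annotation, the strand setting and how replicates were treated are not stated there. FPKM keeps no read counts and divides ambiguous reads by estimate. The relative depth of the columns was read from the most frequent ratio (within 0.2%) of values below 0.1 FPKM.

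Columns were compared on log2(FPKM + 1), where differences of low genes come out too small, over genes of at least 1 FPKM in a compared column, and counted at 1.5-fold. With no replicate columns no test was made; limma, planned for replicate columns, was not used. Alternatives were the pseudocount, the filter on low values, 3 scalings and, for counts over all genes, long genes of unshared sequence. The members, and 8 lists of related genes (159 symbols) and 5 of cell markers, were chosen with earlier results of these data known; 7 symbols, such as Hacd1 (Ptpla), were matched through RefSeq synonyms. Genes were named by rule: members, 14 fixed genes, up to 4 genes per list of at least 5 FPKM with the largest mean GR siRNA difference, markers, and for Thrsp, Scd1 and Fasn the 5 nearest patterns, of which 1 is not reported here. The overlapping and neighbouring genes Gss, Ggt7, Acss2os, Ndufc2, Fen1 and Rab3il1, and Elovl4 of the elongation list, were chosen after their values were seen. Gene positions and 31-mers are from GENCODE M21 (22694 of 23997 genes matched by symbol), promoters from RefSeq. Counting and scaling steps were tested on simulated data. Python 3.11.15 and pandas 2.3.3 were used.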

Additional observations from a re-analysis of the deposited data

Results flagged for a closer look

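The DEX difference had opposite signs in the 2 siRNA arms for 3 of the 10 genes, each arm being a single pair of columns, so the difference between arms was not tested. On the log2(FPKM + 1) scale Thrsp differed by −0.00148 in control siRNA cells and 0.035 in GR siRNA cells. Elovl5 differed by −0.0215 in control siRNA cells and 0.0231 in GR siRNA cells. Acss2, below 1 FPKM in both control siRNA columns, differed by −0.122 in control siRNA cells (0.58 FPKM without DEX and 0.46 FPKM with DEX) and 0.0888 in GR siRNA cells (1.196 and 1.34 FPKM). The signs depend on the scaling for the first pair of genes: with equal totals Thrsp was at −0.0054 and Elovl5 at −0.0265 in GR siRNA cells, and with upper quartile scaling Thrsp was at 0.0063 in control siRNA cells.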

How the results depend on the processing

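No paired analysis was possible because the conditions share a single replicate number, with 1 column each, and so no replicate could be left out. An additive fit of siRNA and DEX over the 4 columns was not run. The 9 higher and 1 lower members with GR siRNA kept their direction with 2 other pseudocounts, without the filter and with 3 scalings; a filter of 5 FPKM leaves out Acss2. Members at 1.5-fold higher without DEX were 3, and 4 with a pseudocount of 0.1 or 0.01 (Acss2 added) or with upper quartile or equal-total scaling (Scd2 added). With DEX they were 4, and 3 with the filter of 5 FPKM. The count of all genes 1.5-fold higher with GR siRNA, 267 without and 268 with DEX, was 408 and 427 with a pseudocount of 0.1, and 426 and 453 with 0.01. Genes of at least 300 nt with a fraction under 0.1 of shared 31-mers are fewer. Without DEX 8245 of them were tested and with DEX 8261, where 11325 and 11344 genes were before. Among them the count was 167 without DEX, and the lower genes were 174 without DEX (288 before) and 176 with DEX (297 before). In the same class DEX in control siRNA cells gave 3 higher and 2 lower of 8166 genes (77 and 44 of 11227 before). DEX in GR siRNA cells gave 4 higher and 2 lower of 8232 (60 and 73 of 11310 before). Equal-total scaling moved the member median for DEX in GR siRNA cells from −0.03 to −0.0804. The member median of the interaction, 0.04, was 0.02535 with upper quartile scaling, −0.00412 with equal totals, and 0.0238 without Acaca and Acss2, a setting chosen after seeing the data. No scaling moved the median of all genes by more than 0.1 on the log2 scale. Depth limits Acss2 most, since it lies near 1 FPKM and the control siRNA column is the shallowest.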

Other observations

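The genes whose 4 values followed those of Thrsp, Scd1 and Fasn most closely were found among 9135 genes of at least 5 FPKM in a column, by the Euclidean distance of log2(FPKM + 1) values after centring each gene, over 4 columns. Nearest to Thrsp were Lrg1 (distance 0.138; 19.4 and 20.3 FPKM in the control arm, 3.98 and 4.78 FPKM in the GR arm), Gm12505 (0.253), Wdr92 (0.27), Ucp2 (0.337) and Sepp1 (0.439), which encodes the plasma selenoprotein P. Nearest to Scd1 were Slc12a8 (0.124; 4.37 and 4.08 FPKM against 12.5 and 12.4 FPKM), the taurine transporter gene Slc6a6 (0.185; 13.99 and 13.8 FPKM against 34.3 and 33.7 FPKM), Txnrd3 (0.204), Serpinb9b (0.227) and the chemokine gene Cxcl12 (0.23). Nearest to Fasn were Mcc (0.0723), Mir686 (0.0791), the unconventional myosin gene Myo10 (0.0813; 17.8 and 17.9 FPKM against 27.6 and 24.02 FPKM) and Atxn1 (0.0849). With 4 columns and patterns set mostly by the siRNA arm, such likeness is a description of these columns.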
